A study of Mus musculus with 3 samples.

Results

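The windows described here are the 2 kb stretches of the mouse genome (GRCm38) that carried H3K36me3 and H3K4me3 together, without H3K27me3, in fully grown germinal vesicle (GV) oocytes. There were 54094 of them among 1186323 valid windows, which is 4.56% of the tiling and 108 Mb of sequence. They were selected on measured values: a window was taken when the mean H3K36me3 RPKM (reads per kilobase of window, scaled to the library's reads) of the 3 replicates was above 1 and when its deposited category held H3K4me3 and no H3K27me3. H3K36me3 by itself, called with the same threshold, covered 31.8% of valid windows (376991). The H3K36me3/H3K4me3 windows were therefore 14.3% of all windows with H3K36me3, and 24.2% of the 223222 windows with H3K4me3 and no H3K27me3. Windows with H3K36me3 alone (292361) and with H3K4me3 alone (169128) served as the comparison.

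The H3K36me3 assay was native ChIP-seq for small cell numbers, in which unfixed chromatin is cut with micrococcal nuclease and precipitated with an antibody. The study had 1 group of 3 replicates, each a pool of about 280 GV oocytes from wildtype C57BL6/Babr mice aged 25 days. No other genotype or treatment was present, and the labels do not say whether the pools came from separate mice, so the spread between replicates may be technical. Replicate 2 was prepared with less antibody than the others. The H3K4me3 and H3K27me3 calls came from libraries of earlier work, with 1 call per window and no replicate values. A window called for both marks can hold them on the same nucleosome, side by side, on the 2 chromosome copies or in different oocytes of the pool, and these cannot be told apart in 2 kb windows of pooled cells.

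H3K4me3 is laid down at promoters by SET1 and MLL type methyltransferases, and H3K36me3 is laid down by SETD2, which travels with elongating RNA polymerase II and marks the bodies of transcribed genes. In most cells the marks are therefore found in order along a gene, H3K4me3 at the start and H3K36me3 further in. Growing mouse oocytes are known for an unusual arrangement, in which H3K4me3 also spreads into broad domains between and within genes, while H3K36me3 covers the transcribed regions that gain DNA methylation. H3K36me3 is read by the PWWP domain of DNMT3A, and methylation at H3K4 is known to hinder DNMT3A and DNMT3L, so regions where the calls coincide are of interest for how the oocyte methylome is placed.

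To show the kind of sequence found where the marks meet at promoters, 4 promoters are given, each from a gene whose start window carried both marks and had RPKM above 1 in each replicate. They are those with the highest mean RPKM among the genes with a sequence in the promoter table used here, in a list of oocyte markers (Zp3, Bmp15) and in a list of cytosolic ribosomal protein genes (Rpl5, Rpl13). Each run is the 250 bases before the RefSeq start of the gene, from the RefSeq genome GRCm38.p6, written 5′ to 3′ on the strand of the gene. Capitals mark the CG dinucleotide (CpG), the site of DNA methylation, which reads the same on both strands. The positions are chr5:135979855-135980104 on the plus strand for Zp3, chrX:6320725-6320974 on the minus strand for Bmp15, chr5:107900278-107900527 on the plus strand for Rpl5 and chr8:123102100-123102349 on the plus strand for Rpl13.
Zp3: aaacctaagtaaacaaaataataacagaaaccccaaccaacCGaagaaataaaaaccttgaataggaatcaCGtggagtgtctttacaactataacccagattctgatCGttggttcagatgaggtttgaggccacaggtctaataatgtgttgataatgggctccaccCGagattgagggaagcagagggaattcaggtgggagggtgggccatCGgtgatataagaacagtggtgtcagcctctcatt
Bmp15: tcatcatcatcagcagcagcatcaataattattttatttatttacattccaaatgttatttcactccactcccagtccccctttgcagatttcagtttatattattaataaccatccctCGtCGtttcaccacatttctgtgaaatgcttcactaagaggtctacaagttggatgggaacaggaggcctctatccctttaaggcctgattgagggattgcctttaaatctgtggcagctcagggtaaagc
Rpl5: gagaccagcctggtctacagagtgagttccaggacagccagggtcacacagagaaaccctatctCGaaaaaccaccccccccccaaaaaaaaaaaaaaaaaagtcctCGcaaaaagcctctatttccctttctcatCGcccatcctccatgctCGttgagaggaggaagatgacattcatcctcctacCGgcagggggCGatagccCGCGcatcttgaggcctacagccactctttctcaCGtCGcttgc
Rpl13: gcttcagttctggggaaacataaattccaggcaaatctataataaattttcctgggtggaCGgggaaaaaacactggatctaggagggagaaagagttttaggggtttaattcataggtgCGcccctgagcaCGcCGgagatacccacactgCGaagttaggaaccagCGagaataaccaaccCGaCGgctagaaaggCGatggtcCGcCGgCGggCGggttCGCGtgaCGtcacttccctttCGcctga

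Zp3 encodes a protein of the zona pellucida, the coat of the egg, and its 250 bases held 5 CpG. Of the 32851 promoters of the same length in the reference, 92.1% held at least 1 CpG and 49.6% held no more than 5. Bmp15, which encodes an oocyte growth factor on the X chromosome, had 2 CpG, a count that 29.0% of promoters did not exceed. The promoters of the ribosomal protein genes were richer, with 10 CpG for Rpl5 and 17 for Rpl13, counts not exceeded by 64.4% and 78.3% of promoters. Promoters of low and of high CpG content were thus both found among the windows with both marks. The H3K36me3 RPKM of the Zp3 start window was 3.26, 3.57 and 5.08 in replicates 1, 2 and 3, from 24, 9 and 15 reads. The Bmp15 start window had 2.31, 4.36 and 3.72, the Rpl5 start window 1.49, 4.76 and 2.03, and the Rpl13 start window 2.72, 2.77 and 1.69. Only 104 bases of the printed Zp3 sequence lie in its start window, since the gene starts near the window's edge, whereas the other 3 sequences lie wholly inside theirs.

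The 3 libraries held 7888140, 2692510 and 3166564 reads in valid windows. The RPKM of 1 read was 0.136, 0.396 and 0.338, so a window needed 8 reads in replicate 1 but only 3 in replicates 2 and 3 to pass 1. The median H3K36me3/H3K4me3 window held 11, 4 and 5 reads, and a single window in a single replicate is therefore a coarse measurement. Summed over all members, the reads came to 653440, 251884 and 309755.

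The values that chose the windows were modest. The mean RPKM of the members ran from 1.00 to 9.16 with a median of 1.59 and quartiles of 1.24 and 2.17, beside a median of 2.05 in windows with H3K36me3 alone. Of the 54094 windows, 26097 (48.2%) were above 1 in each of the 3 replicates, 40.6% in 2 and 11.2% in 1. Among windows with H3K36me3 alone, 66.8% were above 1 in each replicate. Just inside the threshold, 6219 windows had a mean between 1 and 1.1, with average RPKM of 1.02, 1.11 and 1.02 in the 3 replicates. Just outside it, 7400 windows with H3K4me3 alone had a mean between 0.9 and 1, with 0.958, 0.968 and 0.920. The boundary of the set thus passes through windows with nearly equal H3K36me3.

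Since the rule used the mean of all replicates, levels were compared in a replicate that had no part in the call. Windows were called from 2 replicates and measured in the replicate left out, for each replicate in turn. In the left-out replicate the H3K36me3/H3K4me3 windows averaged RPKM of 1.50, 1.54 and 1.60 (1.55 ± 0.05, SD, n = 3). Windows with H3K36me3 alone averaged 1.99, 2.05 and 2.21 (2.08 ± 0.12), and windows with H3K4me3 alone averaged 0.546, 0.481 and 0.406 (0.478 ± 0.070). In each replicate the mean of the members lay above that of H3K4me3 alone and below that of H3K36me3 alone. Members and windows with H3K4me3 alone are separated by the H3K36me3 call itself, so the higher mean of members follows from the call. Single windows did overlap: in the left-out replicate 64.6% of members were above 1. The shares were 82.6% for H3K36me3 alone and 15.2% for H3K4me3 alone. The log2 ratio of members to H3K36me3 alone was -0.43 ± 0.03 and that of members to H3K4me3 alone was 1.71 ± 0.26. With 3 replicates the two-sided exact sign-flip permutation test cannot give a p below 0.25, which is the value reached here and in each of the 11 ratios of this kind that were computed (adjusted p = 0.25 in each). The ratio to H3K36me3 alone was -0.14 when the calling replicates had to exceed 2 instead of 1.

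**Figure D1:**
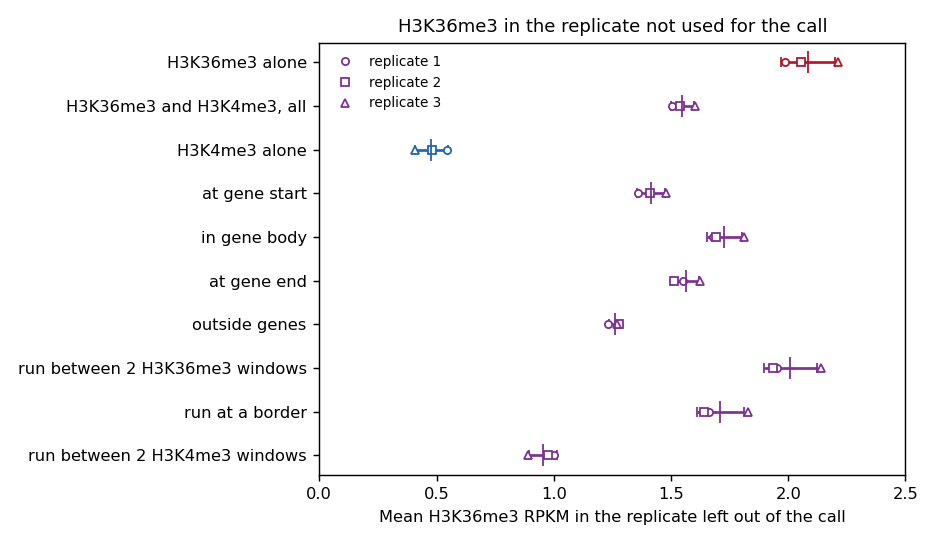
Mean H3K36me3 RPKM (x axis) in the replicate that was left out of the call, for groups of windows (y axis). Symbols are the 3 replicates, the tick is their mean and bars are 1 SD. Windows with both marks (1.55) sit between H3K36me3 alone (2.08) and H3K4me3 alone (0.478), and among them runs between H3K4me3 windows are lowest (0.954).

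Position was then compared with the GENCODE annotation of protein-coding and long noncoding genes, which the rule did not use. Gene starts were more frequent among the members than in windows with H3K36me3 alone or H3K4me3 alone. They were not particular to the members, since windows with H3K4me3 and H3K27me3 had a similar share of 6.33%. A gene start lay in 3627 of the H3K36me3/H3K4me3 windows (6.71%), against 0.890% of windows with H3K36me3 alone, 5.0% of those with H3K4me3 alone and 2.32% of all valid windows. Gene bodies held 59.0% of the members (31933), gene ends 3.27% (1770), and 31.0% (16764) lay outside genes. For H3K36me3 alone these shares were 74.0%, 3.21% and 21.9%, and for H3K4me3 alone 31.1%, 1.93% and 62.0%. The windows with both marks therefore lay between the comparison categories in gene bodies and outside genes, but above either of them at gene starts. Here a window counted as a start if it held an annotated gene start, as an end if it held an end and no start, and as body if its midpoint fell inside a gene.

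These shares depended little on the replicate at gene starts and more elsewhere. Called from single replicates, the share at starts was 6.63%, 6.46% and 6.55% (6.55 ± 0.09), against 0.880 ± 0.015 for H3K36me3 alone and 4.98 ± 0.04 for H3K4me3 alone, so the differences exceeded the spread between replicates. The share in bodies was 57.7%, 51.1% and 53.6%, and the share outside genes 32.4%, 39.6% and 36.9%. Replicate 2 gave the lowest body share and the highest share outside genes. The spread covers H3K36me3 only, since the H3K4me3 call has no replicates.

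**Figure D2:**
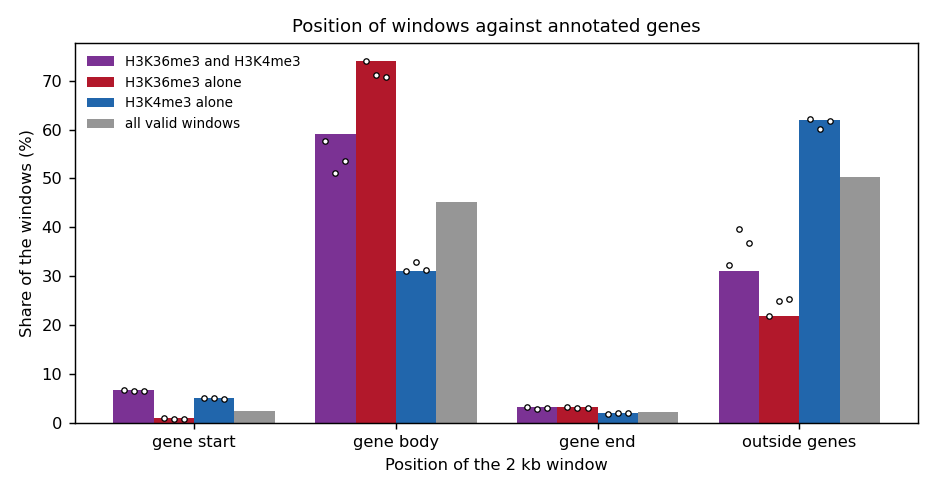
Share of windows (y axis, %) at gene starts, in gene bodies, at gene ends and outside genes, for windows with H3K36me3 and H3K4me3, H3K36me3 alone, H3K4me3 alone and all valid windows. Bars use the mean of the 3 replicates and open circles are calls from replicates 1, 2 and 3 alone. Gene starts make up 6.71% of windows with both marks and 0.890% of those with H3K36me3 alone.

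Seen from the genes, 13.2% of all start windows carried both marks, compared with 5.95% of body windows, 6.80% of end windows and 2.81% of windows outside genes. Members were 53.0% of the start windows with H3K36me3 and 12% of the body windows with H3K36me3. H3K4me3 alone was itself more frequent at starts, in 30.8% of all start windows against 9.80% of all body windows. Counted from the windows with H3K4me3 and no H3K27me3, the order was the reverse: members were 30% of these at starts, 35.2% at ends and 37.8% in bodies, and 13.8% outside genes. Body members also held internal transcript starts more often than other body windows: 8.75% of them contained the start of an annotated transcript, against 6.31% of body windows with H3K36me3 alone and 5.15% of all body windows. Counting every annotated transcript start in place of gene starts raised the share of members at a start to 12.1%. Outside genes, the members lay at a median distance of 23.3 kb from a gene, against 46.4 kb for H3K36me3 alone, 29.8 kb for H3K4me3 alone and 48.1 kb for all windows outside genes. Within 5 kb of a gene lay 19.1% of these members, 12.1% of H3K36me3 alone, 14.5% of H3K4me3 alone and 10.2% of all.

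The windows with both marks were most frequent just downstream of the start. Over the 9861 protein-coding genes that were 20 kb or longer, 11.8% of the windows 2 kb upstream were members, 17.2% of the start windows, 26.2% of the windows 2 kb downstream and 12.2% of those at 4 kb. At 20 kb downstream the share had come down to 6.46%. H3K4me3 alone peaked in the start window and H3K36me3 alone was least frequent there and climbed into the gene, so the members occupied the crossing between them. Altogether 18.9% of all H3K36me3/H3K4me3 windows lay between the start window of a protein-coding gene and 6 kb downstream, against 6.26% of windows with H3K36me3 alone, 8.32% with H3K4me3 alone and 6.56% of all windows. At gene ends the rise was smaller: members made up 5.22% of the windows 2 kb before the end window and 7.39% of end windows. The share was 9.23% in windows 2 kb after the end window and 7.35% at 20 kb after it.

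**Figure D3:**
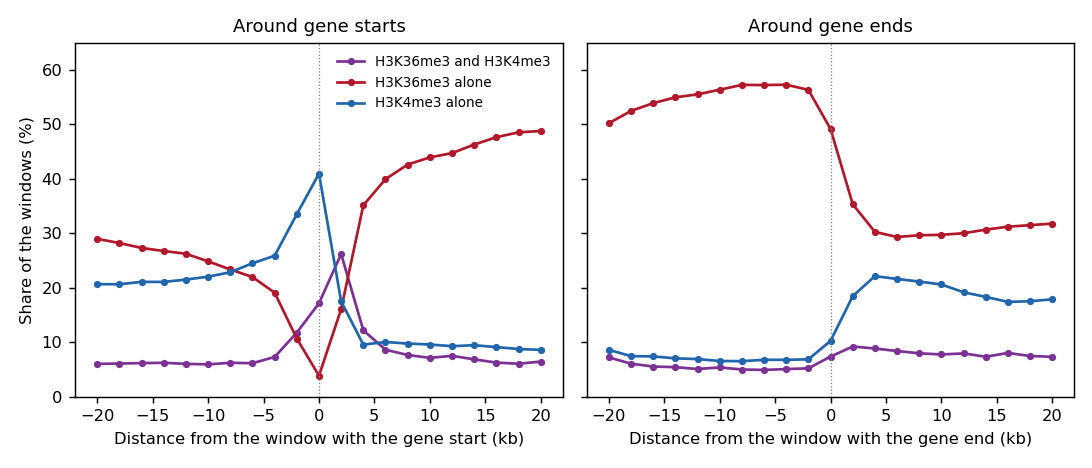
Share of windows (y axis, %) with H3K36me3 and H3K4me3, H3K36me3 alone and H3K4me3 alone, by distance in kb (x axis) from the window with the start (left) or end (right) of protein-coding genes 20 kb or longer, with transcription to the right. Windows with both marks peak at 26.2% in the window 2 kb after the start window and reach 9.23% just past the end.

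The same was seen when protein-coding genes of 20 kb or longer were cut into 10 equal parts from start to end. Windows with both marks made up 13.0% of the first part, 6.77% of the next and 5.03% of the last, whereas H3K36me3 alone rose from 25.2% to 51.6%. For the 1693 long genes whose start window was a member, the next window downstream was a member in 59.1% of genes and had H3K36me3 alone in 27.1%. At 20 kb, 82.4% of their windows had H3K36me3 alone. Upstream of these starts, 34.8% of the neighbouring windows were members as well.

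A start window with both marks went with H3K36me3 further along the gene. Among 20788 protein-coding genes with a valid start window, 3317 (16.0%) started in a member, 36.1% in a window with H3K4me3 alone and 24.9% in a window with H3K4me3 and H3K27me3. Of the 3317, the start window was above 1 in each replicate for 1327. Over genes of at least 10 windows, with the start window left out, genes that started in a member had a mean body RPKM of 2.11, 2.22 and 2.31 (2.21 ± 0.10), and genes that started in H3K4me3 alone had 1.74, 1.77 and 1.88 (1.80 ± 0.07). Genes that started in H3K36me3 alone averaged 1.89 ± 0.11. The genes were sorted on H3K36me3 of the start window in the same 3 replicates, with none held out, so these means are a description. The body mean was above 1 in 96.5% of genes that started in a member. It was above 1 in 85.9% of those that started in H3K4me3 alone and 85.9% in H3K36me3 alone. The place of the start within its window moved with the call as well: the median stretch downstream of the start inside the window was 1208 bases for member starts and 898 bases for H3K4me3 alone, and its part in the result was not tested. Divergent starts, with genes on both strands beginning in 1 window, made up 17.2% of the member start windows, 12.7% of those with H3K4me3 alone and 1.31% of those with H3K36me3 alone.

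In the left-out replicate, H3K36me3 at the members followed position. Gene body members had RPKM of 1.68, 1.69 and 1.81 (1.73 ± 0.07), gene end members 1.56 ± 0.06, gene start members 1.42 ± 0.06, and members outside genes 1.26 ± 0.03. Start members were below body members in each replicate, with a log2 ratio of -0.29 ± 0.02 (exact sign-flip permutation test, p = 0.25, the smallest possible). At gene starts the members also fell short of windows with H3K36me3 alone, by a log2 ratio of -0.56 ± 0.01, compared with -0.33 ± 0.02 in bodies. Start windows with H3K4me3 alone, which by the call did not pass the H3K36me3 threshold, averaged 0.591 ± 0.062.

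Most stretches with both marks were short. The 54094 windows formed 34971 runs of adjoining windows, of which 65.9% were a single window, and the longest was 36 kb. Runs of H3K36me3 alone reached 254 kb and runs of H3K4me3 alone 58 kb. Still, 57.4% of the members lay in runs of 2 or more windows, 29.0% in runs of 3 or more, and 7.25% in the 667 runs of 5 or more. The runs were flanked mostly by 1 of the marks. Of the 69942 flanking positions, 46.4% held H3K36me3 alone, 37.4% H3K4me3 alone and 11.2% no mark, whereas these categories were 25.8%, 14.9% and 27.8% of all windows outside the set.

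Runs were grouped by what lay on their sides. Border runs, with H3K4me3 alone on 1 side and H3K36me3 alone on the other, numbered 12689 (36.3%). Runs with H3K36me3 alone on both sides numbered 8068 (23.1%), and runs with H3K4me3 alone on both sides numbered 4313 (12.3%). The remaining 9901 (28.3%) had another category on at least 1 side. Of the windows in runs inside H3K36me3, 75% lay in gene bodies, whereas 50% of the windows in runs inside H3K4me3 lay outside genes. Border runs held the most gene starts, 8.94% of their windows. Among body windows, 11.6% of those in border runs held an annotated transcript start, against 8.54% inside H3K36me3 and 4.39% inside H3K4me3.

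The border runs had a direction. Of the 4477 border runs that lay, with their flanks, within protein-coding genes of a single strand, 2973 (66.4%) had their H3K4me3 side toward the gene start. Calls from single replicates gave 65.6%, 63.2% and 64.3% (64.4 ± 1.2). The H3K4me3 side thus pointed to the gene end in a sizeable minority.

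The flanks also went with the level in the left-out replicate. Runs inside H3K36me3 had RPKM of 1.95, 1.94 and 2.14 (2.01 ± 0.11), border runs 1.66, 1.64 and 1.83 (1.71 ± 0.10), and runs inside H3K4me3 1.00, 0.974 and 0.889 (0.954 ± 0.058). The order of the means was the same in each replicate. The flanks were sorted by the H3K36me3 call of the same calling replicates, so the order is a description and not separate support. In the runs inside H3K4me3, only 40.1% of windows were again above 1 in the replicate that had not been used, against 81.8% inside H3K36me3 and 15.2% of windows with H3K4me3 alone. Among these run types the call was least repeatable where neither neighbour was called for H3K36me3.

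CpG content, read from the genome sequence, set the member starts apart from starts with H3K36me3 alone. The median member at a gene start had 34 CpG per kb, and 73.0% of such windows had at least 20, compared with a median of 11 and a share of 14.3% for start windows with H3K36me3 alone. Start windows with H3K4me3 alone were similar to the members, with a median of 30.5 CpG per kb. The 304 start windows with all 3 marks, which also carried H3K36me3, had a median of 20, and 51.6% had at least 20. Away from starts the members were close to other windows: 9 CpG per kb in bodies against 8 for H3K36me3 alone, 11 against 10 at ends, and 7.5 against 5.5 outside genes. The median share of soft-masked (repeat) bases was 22.3% in members, 22.8% in H3K36me3 alone, 26.4% in H3K4me3 alone and 25.3% in all valid windows.

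**Figure D4:**
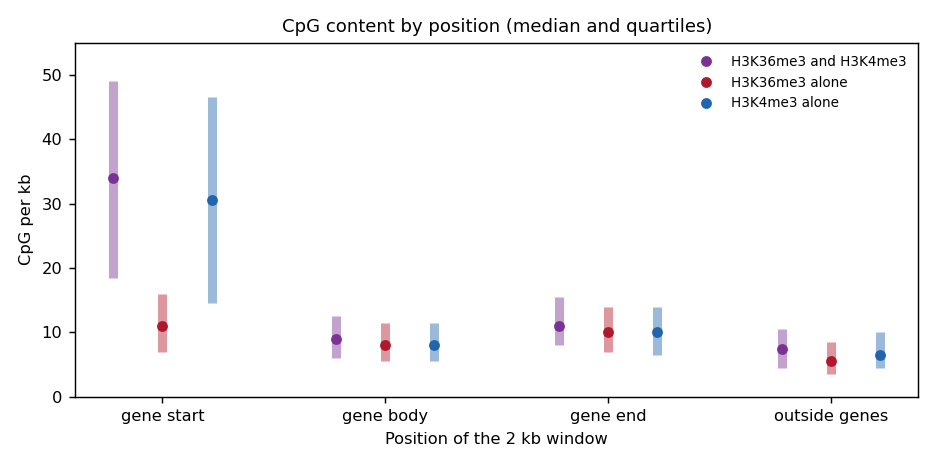
CpG per kb (y axis) of windows by position and category. Points are medians and thick bars run from the lower to the upper quartile over windows. At gene starts the windows with both marks (median 34) lie with H3K4me3 alone (30.5) and above H3K36me3 alone (11).

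Across chromosomes the members made up 3.42% (chromosome 3) to 5.83% (chromosome 5) of the valid windows of an autosome and 2.75% of those of the X chromosome. On the X chromosome 11% of H3K36me3 windows were members, against 12.8% (chromosome 14) to 16.8% (chromosome 19) on autosomes.

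The 10 longest runs, named by their length, showed both arrangements along genes. The longest, of 18 windows at chr13:44724001-44760000, began 5.47 kb before Jarid2, which encodes a subunit of the Polycomb complex that methylates H3K27, and reached 30.5 kb into the gene. Its mean RPKM was 2.68, 2.58 and 3.06 (2.77 ± 0.26), and 14 of its 18 windows were above 1 in each replicate. H3K4me3 alone lay before it and H3K36me3 alone after it, in the order of transcription. The run in Fbxo34, which encodes an F-box protein, covered 28 kb at chr14:47472001-47500000 and began 21.6 kb inside the gene, with RPKM of 2.32, 2.60 and 3.29. The run in Ptprj, which encodes a receptor tyrosine phosphatase, covered 28 kb at chr2:90554001-90582000, included the gene start, and had a lower RPKM of 1.53, 1.93 and 2.10. These 3 runs had H3K4me3 alone on the side of the gene start.

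A run of 22 kb began 0.261 kb inside Htt, the huntingtin gene, with RPKM of 1.90, 2.70 and 2.68. Another of 24 kb lay in Bicdl1, whose product is an adaptor for dynein transport, beginning 1.62 kb from its start, with 2.24, 2.61 and 2.71. The runs in Mcc (24 kb) and Unc5d (22 kb), the latter encoding a netrin receptor, lay inside those genes. The Mcc run also held the start of the antisense noncoding gene A930012L18Rik. In Unc5d the H3K4me3 alone side faced the gene end, the reverse of Jarid2. A run of 22 kb at chr5:123130001-123152000 held 4 start windows, including the start of Setd1b, which encodes an H3K4 methyltransferase. It had the highest CpG content of the 10 runs, a median of 23.5 CpG per kb, and RPKM of 2.63, 2.49 and 3.66. The last 2 were a run across the long noncoding gene Gm36480 and a run outside all genes at chr1:178370001-178392000. The latter lay 14.1 kb from Efcab2, had RPKM of 2.06, 2.31 and 2.52, and was above 1 in each replicate in all 11 of its windows.

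By number of members, the leading protein-coding genes were long ones. At least 1 member lay in 9476 of 21951 protein-coding genes (43.2%), at least 5 in 2001 and at least 10 in 650. The gene model Gm20388, which spans 4435 kb, held 196. Dab1, which encodes an adaptor of reelin signalling, held 90 among 555 windows (16.2%), and Dpp6, which encodes an auxiliary subunit of potassium channels, held 79 among 440 (18%). Auts2 held 75, Fgfr2 (a fibroblast growth factor receptor, here annotated over 2961 kb) 74, the splicing factor gene Rbfox1 68, Fhit 55, Erc2 54, Nckap5 52 and the adhesion gene Sdk1 50. The median protein-coding gene of at least 10 windows had 5.26% members, and 3522 of 10090 such genes had none. In each of these genes except Gm20388 and Fgfr2, most of the other windows had H3K36me3 alone. The start window itself was a member only for Gm20388.

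By share, genes of at least 10 windows were led by Shf with 8 of 11 windows (72.7%), Cdr2 with 8 of 12, Myl12b and Szrd1 with 9 of 14 each, and Nsun4, which encodes a mitochondrial rRNA methyltransferase, with 7 of 11. Their mean RPKM over the gene was 1.43 to 2.84. In Szrd1 the replicates gave 2.41, 2.38 and 2.05 over the gene, and its start window gave 2.17, 1.98 and 2.03. In Shf the start window gave 0.272, 0.793 and 2.03, so its call rested on replicate 3. In Myl12b, a myosin light chain gene, the start window had H3K4me3 alone and the members lay further in.

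Among start windows above 1 in each replicate, the highest mean belonged to D10Wsu102e, with RPKM of 2.04, 8.72 and 8.80 from 15, 22 and 26 reads. Sec22a, a gene of vesicle transport, had 3.12, 3.57 and 9.14. Glmn and Rpap2, which start on opposite strands in the same window, shared 4.07, 3.17 and 7.45. Ern1, which encodes IRE1 alpha, a sensor of the unfolded protein response, had 3.53, 6.74 and 4.40. The highest replicate was more than 2 times the lowest in each of these windows except that of Ern1.

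Gene lists were read by the category of the start window, beside the 16.0% of all protein-coding genes that started in a member. Counts in lists of this size are a description. The shares were highest for ribosomal protein genes (75%), maternal-effect genes (72.7%) and oocyte markers (70%). Of 10 oocyte markers, 7 started in a member: Zp1, Zp2, Zp3, Bmp15, Nobox, Figla and Kit, and 5 of the 7 were above 1 in each replicate. Nobox, an oocyte transcription factor gene, had 2.58, 1.98 and 4.06 in its start window, and Zp2, another zona pellucida gene, had 2.58, 2.38 and 3.38. Gdf9, which encodes the partner growth factor of BMP15, had 1.36, 1.19 and 0.338 at its start and missed the threshold with a mean of 0.962. The 3 windows with midpoints inside Gdf9 were all members. Of the 8 granulosa cell markers, genes of the somatic cells around the oocyte, none started in a member, and 4 started in H3K4me3 with H3K27me3. Amh and Nr5a2 of that list started in H3K36me3 alone, at 1.79 ± 0.57 and 2.62 ± 0.86. Over whole genes H3K36me3 averaged 2.18 ± 0.24 for the oocyte markers and 0.849 ± 0.139 for the granulosa markers, higher in the oocyte list as a whole. Single genes went against this: the oocyte marker Sohlh1 had 0.330 over the gene and started in H3K4me3 with H3K27me3, and the granulosa marker Nr5a2 had 2.01.

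Of 11 maternal-effect genes, whose products act in the early embryo, 8 started in a member, 3 of them above 1 in each replicate. Nlrp2, of the NLRP family, had 2.99, 3.17 and 4.74, and Zbed3 had 2.58, 1.98 and 6.09. Padi6, which is needed for the cytoplasmic lattices of the egg, had 2.17, 4.36 and 3.05. Zar1, Npm2 and Btg4 started in H3K4me3 alone, with means of 0.181 to 0.272.

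Of 20 cytosolic ribosomal protein genes, 15 started in a member and the other 5 in H3K4me3 alone. The start means of the 15 ran from 1.03 (Rps18) to 2.76 (Rpl5), and 7 were above 1 in each replicate. Most of these genes are short, and members made up 41.4% of their 70 windows. Several starts rested on few reads, such as those of Rps18 with RPKM of 1.90, 1.19 and 0 and Rpl10a with 1.09, 0 and 2.71. Of 16 genes of RNA polymerase II and elongation, 7 (43.75%) started in a member, with start means of 1.1 to 1.66. The other 9 started in H3K4me3 alone. Only 1 of the 7 was above 1 in each replicate. Polr2b and Supt6, for example, had 0.815 and 0.793 in their lowest replicate.

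Among genes for writers and erasers of H3K4 methylation, counted with subunits of their complexes, 5 of 16 (31.25%) started in a member. These were Kmt2d and Setd1b, which encode methyltransferases, and Cxxc1, Wdr5 and Rbbp5, which encode non-catalytic subunits. Of the 5, 3 were above 1 in each replicate. Of 12 genes for writers and erasers of H3K36 methylation, 2 (16.7%) started in a member, close to the 16.0% of all protein-coding genes. These were Setd2 (1.63, 1.98 and 2.03) and the demethylase gene Kdm4b (1.77, 2.38 and 1.02). Of 10 DNA methylation genes, 5 (50%) started in a member. Tet3, which encodes the dioxygenase of the oocyte and zygote, had 2.04, 2.38 and 6.43, while Dnmt3l, the cofactor of DNMT3A, had 3.12, 0.396 and 5.08. Dnmt1 had 1.22, 0.793 and 6.09, so most of its mean came from replicate 3, and Uhrf1, Tet2 and Dnmt3l also failed to pass 1 in each replicate.

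Of 22 imprinted genes with maternal methylation, 3 (13.6%) started in a member, a share close to the 16.0% of all protein-coding genes. These were Peg10, Grb10 and Trappc9, with start means of 1.26 to 1.78, and 2 of them were above 1 in each replicate. Peg10 had 2.31, 0.793 and 0.677, so its call rested on replicate 1. The start window holds the annotated gene start, and whether it holds the methylated region was not examined. A further 8 started in H3K4me3 alone and 11 in H3K36me3 alone, categories that held 36.1% and 5.22% of all protein-coding starts. The start means of the 11 ran from 1.55 (Cdh15) to 6.74 (Peg3) and overlapped those of the 3 member starts. No somatic lineage regulator of 10 started in a member, and 7, Pax6 and Myod1 among them, started in H3K4me3 with H3K27me3.

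**Figure D5:**
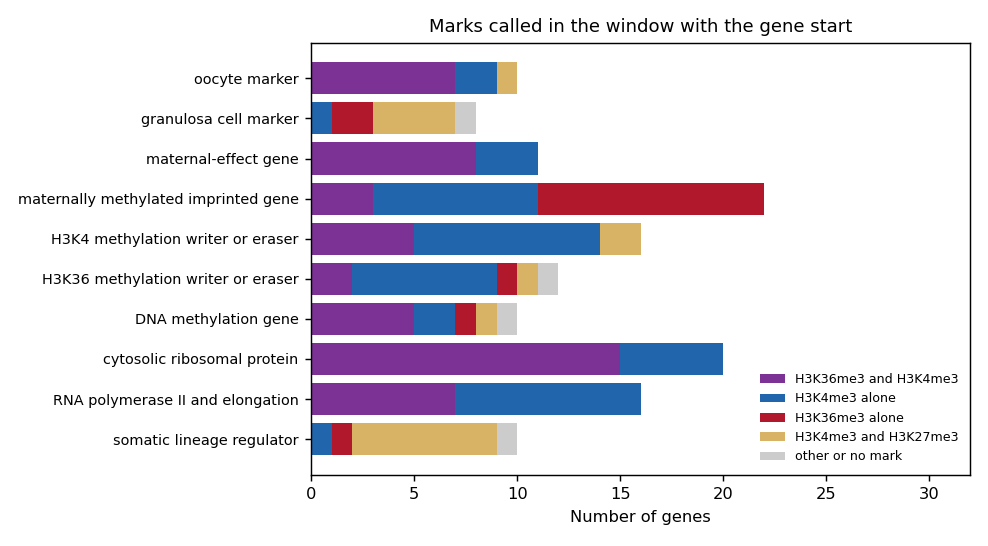
Number of genes (x axis) in each list (y axis) by the marks called in the window with the gene start. Windows with H3K36me3 and H3K4me3 hold 15 of 20 ribosomal protein starts and 7 of 10 oocyte marker starts, and none of the granulosa cell or somatic lineage starts.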

How the data were processed

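GEO holds 3 H3K36me3 ChIP-seq samples. The authors trimmed and mapped the reads to GRCm38 (the submitters' processing notes name Bowtie2 2.2.9) and deposited RPKM per 2 kb window, together with a category per window for H3K36me3, H3K4me3 and H3K27me3. The deposited RPKM values were whole multiples of a single read's worth in each replicate (within 0.02 reads), and reads per window were recovered from that. The deposited H3K36me3 call equalled a mean above 1 in all windows.

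Positions came from GENCODE M21 gene models on GRCm38, and CpG from the genome sequence. Windows were assigned to a gene by their midpoint. For held-out levels, windows were called from 2 replicates and measured in the other, and log2 ratios of mean RPKM were tested by a two-sided exact sign-flip permutation over replicates. Code was tested on simulated windows with Python 3.11.15, numpy 2.4.6, pandas 2.3.3 and matplotlib 3.10.9. The members and gene lists were chosen with earlier results of these data known. Genes named are the 10 longest runs, the 10 protein-coding genes with most members, the 5 with the highest share, the 5 highest start windows above 1 in each replicate, and 10 lists. Nlrp7 of the maternal-effect list had no annotation match and Kdm5d no valid start window. Alternatives were other thresholds, gene sets and replicates.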

Additional observations from a re-analysis of the deposited data

How the results depend on the processing

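Of 77 alternatives, 50 were counted as unchanged. Shares and the CpG ratio had to stay within their spread, and counts within set limits. The spread of the CpG ratio between single-replicate calls was 0, so its 3 alternatives could not count as unchanged. Held-out ratios only had to keep their sign, and several of them moved beyond their spread. The number of windows was 30118 at a mean above 1.5, 16722 above 2 and 26097 above 1 in each replicate. At these settings the share at gene starts was 5.95%, 5.35% and 5.86%. Windows with H3K4me3 and H3K27me3 had 6.33% at the main setting. The share of members was 5.37% with protein-coding genes only and 8.12% with all annotated genes. It was 12.1% with every transcript start and 18.7% within 3 kb of a start. Above 2, bodies held 70.4%, outside genes 20.9%, runs numbered 12525 with the longest at 18 kb, and 72.8% of runs lay beside H3K4me3 alone. Above 1 in each replicate there were 19121 runs, the longest 22 kb. Protein-coding genes only gave 54.8% in bodies, 2.39% at ends and 37.4% outside, and all genes gave 3.67% at ends. Runs of 2 or more windows lay beside H3K4me3 alone in 51.6%. The ratio of median CpG per kb to H3K36me3 alone, 1.20, was 1.13 above 2, 1.35 by means and 1.06 as observed over expected. The share of border runs with H3K4me3 toward the start, added after seeing the data, was 63.2% and 64.3% from replicates 2 and 3 alone. Both held-out ratios stayed negative under every alternative run, from -0.60 to -0.14 against H3K36me3 alone and from -0.38 to -0.28 for starts against bodies. Leaving out each replicate gave 54777 to 58033 windows and 6.65% to 6.77% at starts. The cause of these shifts was not tested. Few reads per window limit single-window values, H3K4me3 has no replicate error, and annotated starts may not be those used in oocytes.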
